A study of Mus musculus with 6 samples.

Results

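RNA-Seq counts of 10 target genes of the transcriptional co-activator YAP were examined in adult mouse hepatocytes with and without ectopic Sox4. The genes were Ccn1, Ccn2, Ankrd1, Amotl1, Amotl2, Ajuba, Axl, Crim1, Ptpn14 and Arhgef17, taken by symbol from a count table of 53599 gene symbols. All 10 were in the table, and 9 of them were among the 12691 genes that passed the expression filter. Mice received an AAV8 vector, a virus that carries a gene into liver cells, and hepatocytes were harvested 4 days later by liberase digestion and Percoll enrichment. The 3 libraries of the Sox4 group, labelled as genotype Sox4, came after AAV8-TBG-HA-Sox4, which per the study's methods also carries Cre behind a P2A peptide. The 3 libraries of the empty vector (EV) group, labelled as genotype WT, came after AAV8-TBG-Cre. Values are given below in the order of the replicate numbers of the labels. TBG is a hepatocyte promoter, so both groups expressed Cre and only the Sox4 group expressed HA-tagged Sox4 from the vector. Per the study's methods, the mice for ectopic expression carried the Rosa-LSL-Cas9-EGFP allele on a C57BL/6J background, in which Cre also turns on Cas9 and EGFP. Per the study's methods, legends and reporting form the mice were male and a few weeks old when injected, and each library came from a separate animal. The labels give neither age nor sex.

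YAP and its relative TAZ enter the nucleus when the Hippo kinases MST and LATS do not phosphorylate them, and there they act through the DNA-binding TEAD factors. In the liver YAP activity is low in hepatocytes and high in biliary cells, and YAP that is forced on in hepatocytes is known to give them biliary features. The genes described here are widely used as readouts of YAP. Some are secreted or surface proteins, and several are Hippo regulators that act back on YAP. These libraries measured mRNA, and neither YAP protein nor its location in the cell was measured.

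Total counts per library lay between 15090629 and 16964860. Sox4 had at most 3 counts in any EV library and at least 11816 in any Sox4 library, so the libraries matched their labels. Of 8 hepatocyte markers 7 were lower in Sox4, against 26.0% of all tested genes, and none was higher past the threshold. The sum of the 8 was 109000 to 132000 CPM in the EV libraries and 74200 to 85600 CPM in the Sox4 libraries. CPM are normalised counts on library sizes scaled by the trimmed mean of M-values (TMM). On this scale the log2 fold change of the median gene was 0.04, against 0.50 with library size alone, where 79.9% of the genes past the threshold were higher in place of 52.7%.

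All 9 tested YAP-responsive genes had a log2 fold change above 0, and 7 rose in Sox4 past an adjusted p of 0.05 in the edgeR quasi-likelihood test, namely Ccn1, Ccn2, Amotl2, Ajuba, Crim1, Ptpn14 and Arhgef17. None fell. By comparison, 55.1% of all tested genes passed, with 29.0% of tested genes higher and 26.0% lower. In 8 of the 9 genes every Sox4 library lay above every EV library, as in 33.1% of all tested genes, while none lay below throughout, as 29.9% of tested genes did. Ankrd1 was below the filter, and Axl and Amotl1 were tested but did not pass. Ccn1, Amotl2, Ajuba and Crim1 reached the filter in every EV library, and their log2 fold changes lay at percentiles 97.0, 93.7, 96.9 and 82.4 of all tested genes, whereas Ccn2, Amotl1, Axl, Ptpn14 and Arhgef17 passed through the Sox4 libraries, which biases those that passed toward higher values in Sox4.

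**Figure D1:**
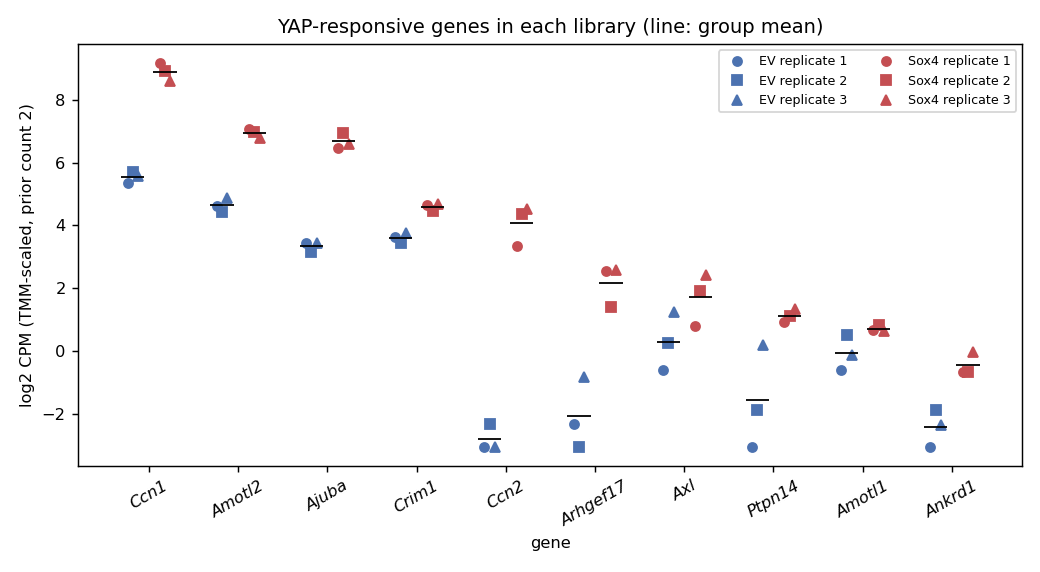
Level of each YAP-responsive gene in each library, as log2 CPM with a prior count of 2, with EV in blue, Sox4 in red and the group mean as a line. The groups overlap in Axl and lie apart in the other genes, most widely in Ccn2.

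Promoter sequences of 8 of the 10 genes were held in the RefSeq promoter table for build GRCm38.p6, which covers 250 bases before and 50 after each start. Ccn2 and Arhgef17 had no entry. These sequences are shown because the core letters that TEAD factors recognise, CATTCC on either strand (GGAATG on the other), stood in 7 of the 8 windows. The same letters stood in 14.7% of all 32851 windows of that length. The stretch around each match is given 5′ to 3′ along the gene, with the matched letters in capitals.
Ccn1, chr3:145650056-145650115, minus strand: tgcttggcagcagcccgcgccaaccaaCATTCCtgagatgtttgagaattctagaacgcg
Amotl2, chr9:102717712-102717771, plus strand: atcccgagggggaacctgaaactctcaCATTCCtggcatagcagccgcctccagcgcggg
Ajuba, chr14:54577804-54577863, minus strand: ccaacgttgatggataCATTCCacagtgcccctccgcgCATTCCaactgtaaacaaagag
Ptpn14, chr1:189728095-189728154, plus strand: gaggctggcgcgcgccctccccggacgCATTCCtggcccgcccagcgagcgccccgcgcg
Crim1, chr17:78200142-78200201, plus strand: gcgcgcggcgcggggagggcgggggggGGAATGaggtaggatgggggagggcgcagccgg
Axl, chr7:25788924-25788983, minus strand: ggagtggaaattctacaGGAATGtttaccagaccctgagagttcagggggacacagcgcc
Ankrd1, chr19:36119952-36120064, minus strand: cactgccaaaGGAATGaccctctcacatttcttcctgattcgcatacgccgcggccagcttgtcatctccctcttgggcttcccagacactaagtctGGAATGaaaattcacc
Ajuba and Ankrd1 each held 2 matches, where 1.36% of all windows held more than 1. Counted from the start, the matches began at -65 in Amotl2, -79 in Crim1, -103 in Ccn1, -146 in Ptpn14 and -233 in Axl, at -186 and -164 in Ajuba, and at -210 and -123 in Ankrd1. Amotl1 held none. Among tested genes with a promoter entry, the letters stood in 15.3% of those higher in Sox4, 15.9% of those lower and 12.8% of those not past the threshold. Of 9 other YAP target genes with an entry (the list is given below) only Lats2 held the letters. The letters ACAAAG, a core that SOX factors recognise, stood in 1 of the 8 windows, that of Ajuba, and in 18.7% of all windows. The AP-1 letters TGANTCA, which read the same on both strands, were in none of the 8 and in 7.81% of all windows. A match of letters is a description of the sequence, and binding was not measured in these files.

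**Figure D2:**
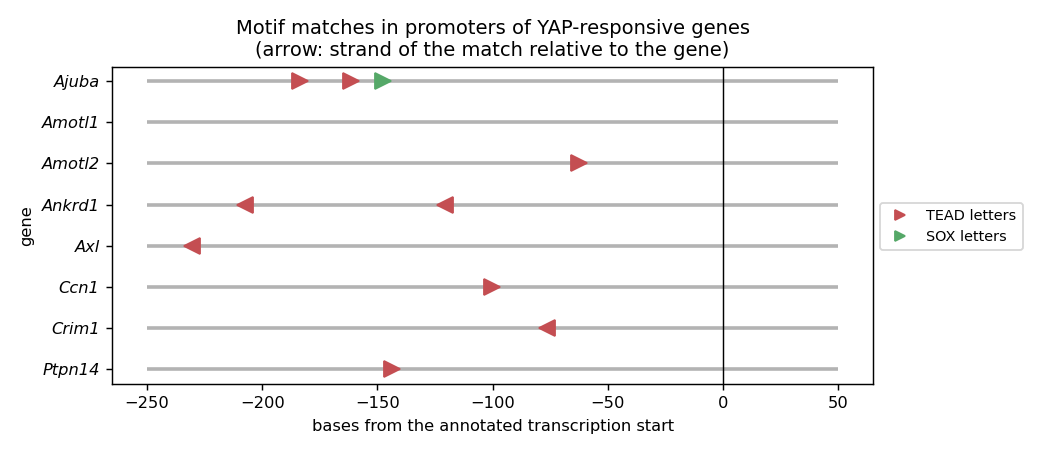
Position of the TEAD letters (red) and SOX letters (green) in the promoters of the 8 YAP-responsive genes with an entry, in bases from the annotated start, with the arrow giving the strand of the match. All TEAD matches lie upstream of the start, and Amotl1 has none.

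Ccn1 and Ccn2 encode secreted matricellular proteins that bind integrins and growth factors, and both are standard YAP targets. Ccn1 had 526, 678 and 649 counts in the EV libraries and 11506, 9452 and 7746 in the Sox4 libraries. Its level rose from 46.4 ± 5.51 to 484 ± 92.1 CPM (SD, n = 3), a log2 fold change of 3.37 (SE 0.19, edgeR adjusted p = 8.87e-07). The lowest Sox4 library, at 393 CPM, was far above the highest EV library, at 51.5 CPM. Ccn1 alone made up 44.8% to 54.2% of the counts of the 10 genes in EV and 59.1% to 68.2% in Sox4.

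Ccn2 was nearly absent from EV, with 0, 1 and 0 counts, whereas the Sox4 libraries held 202, 405 and 447 counts. Its level in Sox4 was 17.8 ± 6.74 CPM (SD, n = 3), and it rose past the threshold (edgeR adjusted p = 6.51e-06). The ratio of the summed levels was 710, with an exact 95% Poisson interval from 127 to 28100 that covers counting error only, so the size of the increase is poorly bounded from above. Sox4 1 held less than the other Sox4 libraries, at 10.1 CPM against 20.7 and 22.7. A predicted gene on the opposite strand, Gm15270, overlaps 23.2% of the exon length of Ccn2 in GENCODE M21, and it had 1 count over all libraries. The strand setting of the counting was not stated, so reads of the pair cannot be told apart in the overlap.

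Crim1, a membrane protein with cysteine-rich repeats that binds bone morphogenetic proteins, changed by less. Crim1 went from 159, 141 and 183 counts in EV to 497, 431 and 503 in Sox4. The level rose from 12.1 ± 1.30 to 24.1 ± 1.86 CPM (SD, n = 3), a log2 fold change of 0.99 (SE 0.11, edgeR adjusted p = 2.65e-04). The groups lay well apart, and the spread within each was narrow, with a coefficient of variation of 10.8% in EV and 7.71% in Sox4.

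Ankrd1, an ankyrin repeat protein that acts in the nucleus and in the muscle sarcomere, was at the edge of detection. Its counts were 0, 2 and 1 in EV and 10, 10 and 17 in Sox4. Every Sox4 library was above every EV library, and the ratio of summed levels was 8.31 (exact 95% Poisson interval 2.63 to 42.1). Ankrd1 did not reach the filter and has no test in the comparison. Where every gene with a count was tested, it passed with a log2 fold change of 1.99, in a fit whose p-values were far smaller than in the filtered fit also for well-counted genes and are not relied on here. When an EV library was left out, the filter followed the smaller EV group, and Ankrd1 reached it through the Sox4 libraries alone. Its log2 fold change was then 1.68 without EV 1 (edgeR adjusted p = 0.0389), 2.28 without EV 2 (0.0194) and 2.02 without EV 3 (0.0407). Entry by that route favours higher values in Sox4, so these results are not relied on here.

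Amotl1, Amotl2, Ajuba and Ptpn14 are regulators of the pathway as well as its targets. The angiomotins Amotl1 and Amotl2 hold YAP at junctions and in the cytoplasm, Ajuba is a LIM protein that inhibits LATS kinases, and the phosphatase Ptpn14 binds YAP and restrains it. The 4 genes thus include both inhibitors and an activator of YAP.

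Counts of Ajuba were 140, 115 and 149 in EV and 1782, 2428 and 1896 in Sox4. It rose from 10.1 ± 1.20 to 103 ± 18.4 CPM (SD, n = 3), a log2 fold change of 3.33 (SE 0.18, edgeR adjusted p = 5.90e-07). Its change was about as large as that of Ccn1. With 2 TEAD matches its promoter held more than the others shown apart from Ankrd1. Whether the number of matches goes with the size of the change was not tested.

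For Amotl2 there were 318, 280 and 405 counts in EV against 2658, 2451 and 2197 in Sox4. It rose from 25.1 ± 4.10 to 123 ± 11.1 CPM (SD, n = 3), a log2 fold change of 2.30 (SE 0.16, edgeR adjusted p = 2.12e-06). The lowest Sox4 library was at 111 CPM and the highest EV library at 29.4 CPM.

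Amotl1 was far lower. It had only 7, 17 and 11 counts in EV against 29, 32 and 28 in Sox4, and although the groups did not overlap the difference did not pass (log2 fold change 0.77, SE 0.32, edgeR adjusted p = 0.137). The 95% interval from limma-voom ran from -0.090 to 1.73, so a change of the size of Crim1 could not be told from none at this depth. With library size alone Amotl1 passed, at 1.19 (edgeR adjusted p = 0.0221).

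Ptpn14 was barely counted in EV (0, 2 and 14 counts) and reached 35, 40 and 47 counts in Sox4. The Sox4 libraries lay close together, at 1.75 to 2.38 CPM, whereas EV 3 with 1.02 CPM stood above the other EV libraries. The log2 fold change was 2.69 (SE 0.95, edgeR adjusted p = 0.0260). This call depended on single libraries. It was lost without EV 2 (2.56, edgeR adjusted p = 0.0963), without Sox4 2 (2.67, 0.0628) and without Sox4 3 (2.57, 0.0576), and the value was 3.60 without EV 3 and 1.96 without EV 1. It was 3.53 with a prior count of 0.5 and 3.36 in limma-voom.

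Arhgef17 encodes a guanine nucleotide exchange factor that acts on the actin cytoskeleton, whose tension YAP responds to. Its counts were 1, 0 and 6 in EV against 114, 49 and 116 in Sox4. It rose from 0.171 ± 0.233 to 4.70 ± 1.90 CPM (SD, n = 3), a log2 fold change of 4.25 (SE 0.76, edgeR adjusted p = 4.59e-04). The value was 4.89 without EV 3, the library with the most EV counts, and Sox4 2 held less than 0.5 of the level of the other Sox4 libraries.

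**Figure D3:**
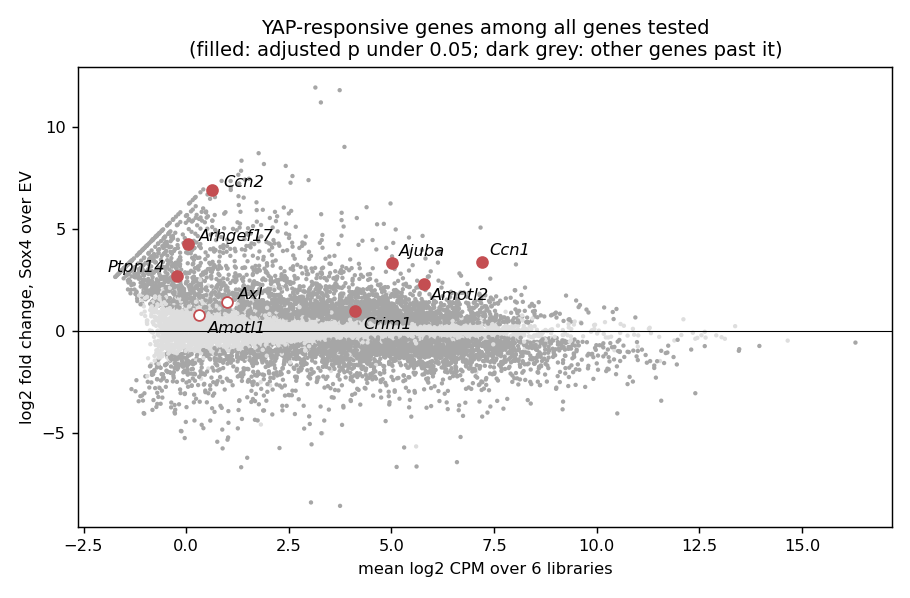
Log2 fold change of Sox4 over EV against mean log2 CPM over the 6 libraries for all tested genes, with the YAP-responsive genes in red and filled where the adjusted p is under 0.05. Ccn1, Ajuba and Amotl2 combine a high level with a large increase, and Axl and Amotl1 lie at low levels and did not pass.

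Axl, a receptor tyrosine kinase for the ligand Gas6, was the only gene of the 10 whose groups overlapped. The EV libraries held 7, 14 and 31 counts (0.539, 1.06 and 2.25 CPM) and the Sox4 libraries 32, 71 and 103 counts (1.60, 3.63 and 5.22 CPM), so that Sox4 1 lay below EV 3. The log2 fold change was 1.41 (SE 0.72, edgeR adjusted p = 0.0540), with a 95% interval from -0.0025 to 2.91 in limma-voom. Axl passed without EV 3 (1.87, edgeR adjusted p = 0.0167), without Sox4 1 (1.86, 0.0115), with library size alone (1.84, 0.0143) and with a replicate block (1.41, 0.00406). It did not pass without any of the other 4 libraries, where the value lay between 0.945 without EV 1 and 1.37 without EV 2, with edgeR adjusted p from 0.112 to 0.175.

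Markers of other liver cells differed between the libraries as well. Their numbers past the threshold stand beside 29.0% of all tested genes higher in Sox4 and 26.0% lower. The summed level of 8 Kupffer cell markers was 9.94, 19.1 and 22.9 CPM in the EV libraries against 23.2, 46.8 and 57.2 CPM in the Sox4 libraries, and 3 of the 7 tested markers were higher in Sox4 (Cd5l, C1qb and Marco). None of these markers was at 0 in a library, and like Axl the sum was lowest in EV 1 and highest in Sox4 3. The sum of 10 stellate cell markers was 11.0, 29.5 and 50.7 CPM in EV against 139, 151 and 98.4 CPM in Sox4, so it was highest in Sox4 2, and 4 of the 6 tested were higher (Reln, Rgs5, Ecm1 and Col3a1). Most of this sum was Reln, which ran opposite to Axl among the Sox4 libraries at 126, 117 and 50.8 CPM. Without Reln the stellate sum was 3.93, 6.91 and 13.1 CPM in EV against 12.5, 34.3 and 47.5 CPM in Sox4. In that form it ranked the libraries in the same order as Axl, with Sox4 1 below EV 3. The defining stellate marker Lrat was at 10 to 50 counts in Sox4 and at most 8 in EV, and Pdgfrb at 3 to 22 counts and at most 1. The sum of 9 endothelial markers ranged from 19.6 to 31.9 CPM among EV libraries and from 17.5 to 41.8 CPM among Sox4 libraries, lowest in Sox4 1, with 2 markers higher (Clec4g and Kdr) and 1 lower (Stab2). Of the markers that rose, Marco, Rgs5 and Col3a1 passed the filter through the Sox4 libraries, which biases them toward higher values in Sox4. In bulk RNA fewer cells of a type and less RNA per cell cannot be told apart. The part of these cells in the values of Axl, and in those of the genes that rose, was not tested.

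**Figure D4:**
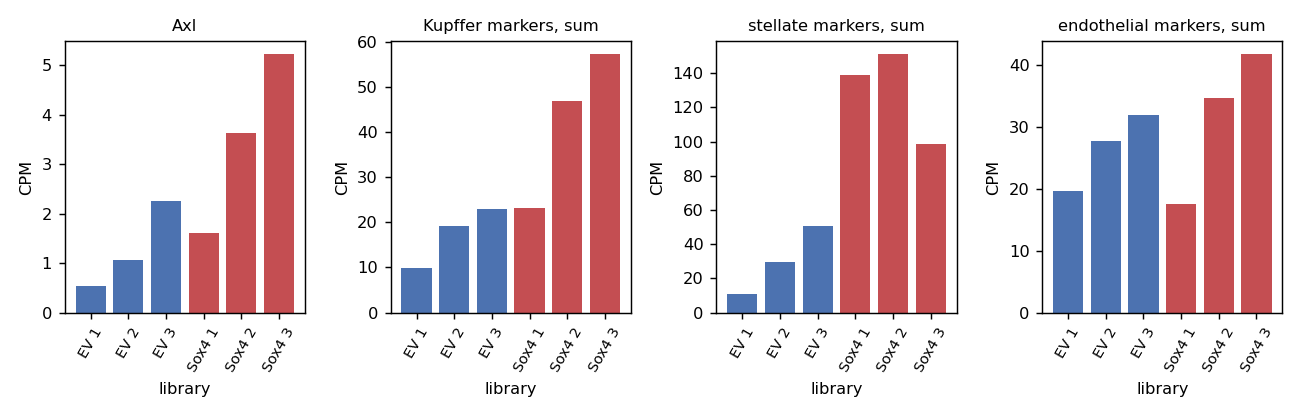
CPM in each library of Axl and of the summed Kupffer, stellate and endothelial markers, with EV in blue and Sox4 in red. Axl, the Kupffer sum and the endothelial sum are highest in Sox4 3, and the stellate sum, most of it Reln, is highest in Sox4 2. Without Reln, which is not drawn apart, the stellate sum is highest in Sox4 3 as well.

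Of 5 mesothelial markers none reached the filter, 4 were at 3 counts or fewer in every library and Upk3b was at 0 in all. The remaining marker, Lrrn4, had 0, 1 and 0 counts in EV and 12, 2 and 13 in Sox4. Of 8 cholangiocyte markers 5 were below the filter, Krt19 and Krt7 were at 0 in every EV library and at most 9 counts in a Sox4 library, and Epcam and Spp1 were higher in Sox4. Epcam, too, passed the filter through the Sox4 libraries. The sum of the 8 ranged from 21.6 to 26.8 CPM among EV libraries and from 62.5 to 69.2 CPM among Sox4 libraries.

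Levels of different genes were compared per kilobase of merged exon (RPKM), with lengths from GENCODE M21. In EV the order was Ccn1 (23.0), Amotl2 (3.98), Ajuba (2.77), Crim1 (2.02) and then 6 genes at or below 0.255 RPKM, among which no neighbours were apart in every library. In Sox4 the order was Ccn1 (240.0 ± 45.6), Ajuba (28.3 ± 5.05), Amotl2 (19.6 ± 1.76), Ccn2 (6.23 ± 2.35) and Crim1 (4.03 ± 0.311 RPKM, SD, n = 3). Ajuba thus stood above Amotl2 in every Sox4 library and below it in every EV library. Ccn2 went from the last place to the fourth, where its range met that of Crim1. Axl, Arhgef17, Ankrd1, Ptpn14 and Amotl1 stayed under 1.05 RPKM in every library. Measured against all tested genes with a length, Ccn1 was at percentile 85.9 in EV and 99.0 in Sox4, and Ajuba at percentiles 44.1 and 90.3.

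The 3 Sox4 libraries did not rank alike across the genes. Sox4 1 was the highest for Ccn1 and Amotl2 and the lowest for 5 others, and Sox4 3 was the highest for 6 of the 10 genes. Sox4 itself ran the same way as Ccn1 and Amotl2, with 1090, 771 and 599 CPM in Sox4 1, 2 and 3. The summed level of the immediate early genes described below also ran that way, at 3290, 2130 and 1910 CPM. Whether these orders are linked was not tested. In EV, EV 3 was the highest for 6 of the 10 genes and the lowest for none. Within Sox4 the ratio of the highest to the lowest library was 1.15 in Amotl1, 1.16 in Crim1 and 1.20 in Amotl2, and reached 2.24 in Ccn2, 2.35 in Arhgef17 and 3.25 in Axl.

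Paralogues of these genes and the ligands of Axl were compared next. Of 14 such genes 8 were tested, and 4 rose, with 29.0% of all tested genes higher. Amot, the founding angiomotin, rose from 14.4 ± 0.419 to 40.4 ± 5.78 CPM (SD, n = 3), by 1.48 on the log2 scale (SE 0.12, edgeR adjusted p = 1.79e-05). Wtip, a LIM protein related to Ajuba, went from 1, 6 and 4 counts in EV to 95, 69 and 88 in Sox4 (log2 fold change 3.59, edgeR adjusted p = 8.44e-05). Ptpn21, the closest relative of Ptpn14, rose by 0.88 on the log2 scale (edgeR adjusted p = 1.28e-04), and Tyro3, of the Axl family, by 2.63 (edgeR adjusted p = 0.00529) from at most 5 counts in an EV library. Wtip and Tyro3 passed the filter through the Sox4 libraries, as did Myof, Dchs1, Tead2 and Ier3 among the genes that rose in the lists below. That route biases such genes toward higher values in Sox4. Limd1 (0.05), Mertk (-0.47) and the ligands Gas6 (0.21) and Pros1 (-0.08) did not pass the threshold. The other CCN genes, Ccn3 to Ccn6, did not reach the filter, with no more than 16 counts in any library, nor did Ankrd2 and Ankrd23, with no more than 12.

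The 14 genes left of a published cross-cancer YAP signature, once its members described above were taken out, served as a comparison. Of these 10 were tested, 4 were higher (40.0%, against 29.0% of all tested genes) and Dock5 was lower, with a median log2 fold change of 0.83 against 0.04 for all tested genes. Myof, a membrane repair protein, went from 0, 0 and 2 counts in EV to 90, 79 and 85 in Sox4, a ratio of summed levels of 85.5 (exact 95% Poisson interval 23.4 to 710.0, edgeR adjusted p = 3.08e-05). Gadd45a, a stress-induced growth arrest gene, rose from 5.80 ± 2.03 to 28.4 ± 9.97 CPM (SD, n = 3, log2 fold change 2.26, edgeR adjusted p = 5.08e-04). Lats2, the kinase that phosphorylates YAP and is itself its target, went from 68, 98 and 108 counts in EV to 260, 280 and 326 in Sox4 (log2 fold change 1.10, SE 0.21, edgeR adjusted p = 9.86e-04). Nuak2, a kinase, rose by 0.93 on the log2 scale (edgeR adjusted p = 0.00989). Dock5, an exchange factor for Rac, fell from 34.0 ± 2.87 to 14.6 ± 3.86 CPM (SD, n = 3), with a log2 fold change of -1.24 (SE 0.24, edgeR adjusted p = 5.14e-04). Asap1 (0.05), F3 (0.73), Igfbp3 (0.46), Ccdc80 (1.31) and Nt5e (0.13) did not pass. Tgfb2, Fjx1, Foxf2 and Rbms3 were below the filter, and Foxf2 had no count in any library.

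**Figure D5:**
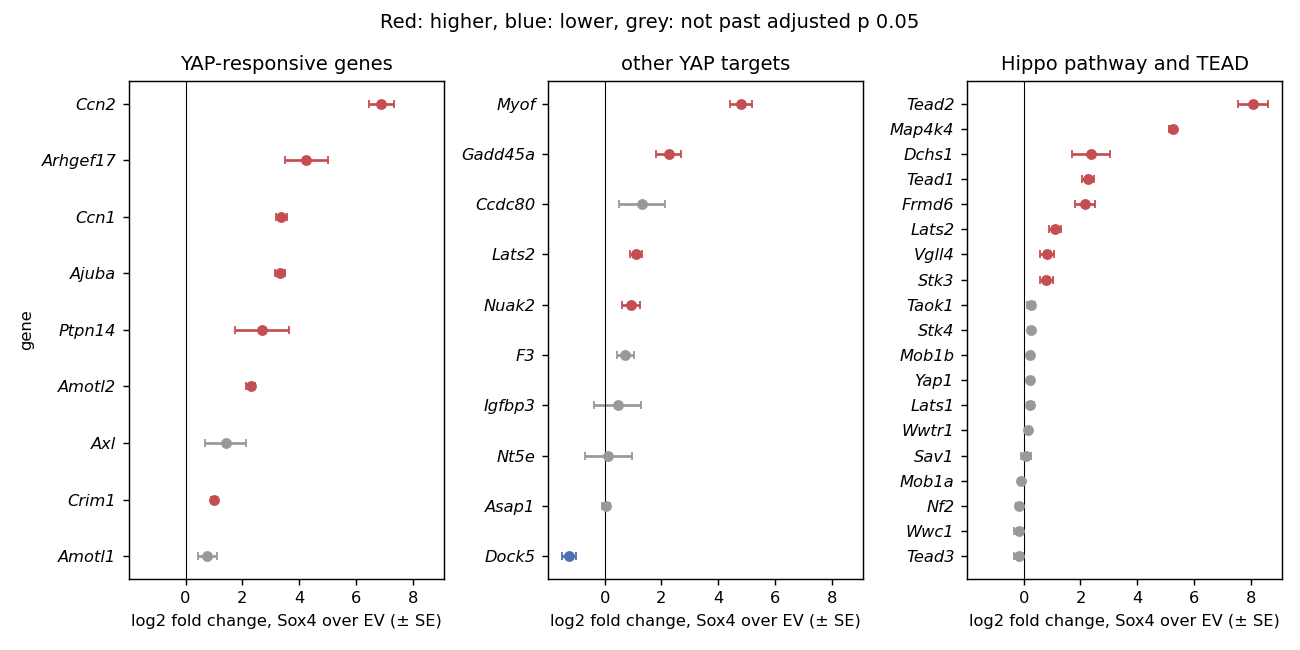
Log2 fold change of Sox4 over EV with its SE (n = 3 per group) for the tested YAP-responsive genes, the tested other YAP targets and the tested Hippo pathway and TEAD genes, in red where higher, blue where lower and grey where not past an adjusted p of 0.05. Red points reach from Crim1 at 0.99 to Ccn2 at 6.89 in the left panel, and Dock5 is the only gene that fell.

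Among 21 genes of the Hippo pathway itself 19 were tested, and 8 were higher and none lower, or 42.1% called against 55.1% of all tested genes, of which 29.0% were higher. Their median log2 fold change was 0.25, against 0.04. The DNA-binding partner Tead2 went from 2, 7 and 1 counts in EV to 1822, 1564 and 1858 in Sox4 (log2 fold change 8.08, SE 0.53, edgeR adjusted p = 1.22e-07). Map4k4, a kinase that acts on LATS alongside MST, rose from 4.47 ± 0.543 to 173 ± 6.44 CPM (SD, n = 3), by 5.24 on the log2 scale (SE 0.11, edgeR adjusted p = 2.94e-08). Dchs1 (2.37), Tead1 (2.26) and Frmd6 (2.16) also rose on the log2 scale, as did Lats2 (1.10), Vgll4 (0.83) and Stk3 (0.80). Tead4, below the filter, was not counted in EV and had 10, 19 and 25 counts in Sox4. The mRNA of Yap1 was at 87.3 ± 3.47 CPM in EV and 102 ± 3.85 CPM in Sox4 (0.23, SE 0.05, edgeR adjusted p = 0.0793), and that of Wwtr1, which encodes TAZ, at 20.2 ± 1.79 and 22.5 ± 1.52 CPM (0.16, edgeR adjusted p = 0.329). With library size alone 17 of these genes were higher, and without Sox4 1 there were 14.

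Ccn1 is also known as an immediate early gene that answers to stress such as cell isolation, so 12 other immediate early genes were set beside it. Of these 7 were higher and none lower, against 29.0% higher over all tested genes, with a median log2 fold change of 0.78. In the same 7 (Fos, Fosb, Egr1, Atf3, Ier3, Btg2 and Myc) every Sox4 library lay above every EV library, as in 33.1% of all tested genes. The largest increases were in Ier3 (6.17), Fosb (4.42) and Atf3 (3.99, edgeR adjusted p = 4.13e-04). Jun (0.51), Junb (0.04), Ier2 (0.23), Dusp1 (0.08) and Zfp36 (-0.51) did not pass. The summed level of the 12 genes ranged from 1380 to 2060 CPM among EV libraries and from 1910 to 3290 CPM among Sox4 libraries. The part of cell isolation in the values of Ccn1 was not tested.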

How the data were processed

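The 10 genes and all gene lists were chosen with earlier results of these data known. Per the submitters' processing notes, the authors aligned reads to GRCm39 with STAR 2.7.10b and counted them with featureCounts 2.0.1. The deposited table holds unnormalized counts for each gene symbol. Annotation release, strand setting and multi-mapping rule were not given in the sources used here. A second deposited table, normalized by the authors with DESeq2, was not used here.

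Counts were analysed in R 4.3.3. Genes were kept with filterByExpr (minimum count 10, minimum total 15), scaled by TMM and tested with the quasi-likelihood F test of edgeR 4.0.16 without covariates over 3 EV and 3 Sox4 libraries. Benjamini-Hochberg adjustment ran over all 12691 tested genes, and the threshold was 0.05. Log2 fold changes are differences of mean log2 CPM with a prior count of 2, and SE is that of this difference. Intervals of single genes came from limma 3.58.1 (voom). Alternatives included DESeq2 1.42.0, other scalings and filters, a replicate block and each library left out. Scripts were tested on simulated data. A count of 3 corresponded to 0.150 to 0.231 CPM. No pair of replicates agreed within sampling noise (chi-square per degree of freedom 17.6 to 62.7). Per the study's legends the 3 libraries of a group came from separate animals. Exon lengths and overlaps came from GENCODE M21 (GRCm38), a build other than that of the counts. Named genes were all 10 genes, those of each comparison list past the threshold with the 5 largest changes (3 for immediate early genes), and list genes named for their role.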

Additional observations from a re-analysis of the deposited data

How the results depend on the processing

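Over the 9 fits that changed scaling, filter, test, dispersion or block, 5 to 9 of the 10 genes were higher past the threshold, against 7, and none was lower. The lowest number, 5, came with a mean count of at least 50, where fewer genes were tested, and the highest with library size alone and without a filter. With library size alone 6468 of all tested genes were higher past the threshold, in place of 3684. When a library was left out the number lay between 6 and 9, with Ankrd1 among them where that library was of the EV group. Ccn1, Ccn2, Amotl2, Ajuba, Crim1 and Arhgef17 passed in every fit that tested them. Of 140 recomputed values of the 9 tested genes, 129 stayed on their side of the threshold, 3 fell short of it (all Ptpn14), 8 went past it (7 of Axl and 1 of Amotl1) and none changed sign. The 140 include those with a prior count of 0.5, which alters the log2 fold change but not the p-value. Those values could not cross the threshold. The number of Hippo pathway genes past the threshold was 17 with library size alone, in place of 8, where the median of all genes lay at 0.50, and between 8 and 14 with 1 library removed, the highest without Sox4 1; the cause of the latter was not tested. Across genes, the correlations of deviations between libraries of equal number were 0.273, -0.0898 and 0.131, which gave no pairing beyond the number itself. With the replicate block 8 of the 10 genes passed, with Axl at 1.41 (edgeR adjusted p = 0.00406), and 7362 genes in all in place of 6990, with 5 other YAP targets and 8 Hippo genes. With DESeq2 Axl passed as well (1.43, adjusted p = 0.0227). Genes with few EV counts depended most on the prior count, with Ccn2 at 8.52, Arhgef17 at 5.26 and Ptpn14 at 3.53 with a prior count of 0.5, in place of 6.89, 4.25 and 2.69, and Ccn2 at 9.37 in DESeq2 and Arhgef17 at 5.11 in limma-voom. Without a filter Axl passed too, but p-values of that fit were far smaller than in the filtered fit also for well-counted genes and are not given.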
